A study of Rattus norvegicus with 6 samples.

Results

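The genes described here are 8 rat genes that set how a heart cell starts and passes on its electrical signal: the pacemaker channels Hcn2 and Hcn4, the calcium channel genes Cacna1c, Cacna1g, Cacna1h and Cacnb2, and the connexins Gja5 and Gja1. They were chosen as every row of the deposited mRNA table whose RefSeq transcript belongs to one of them. That gave 9 rows of 20734, Cacna1g having a second transcript row. All 8 genes passed the filter on dim probes, so they are 8 of the 20006 genes tested. No sodium channel is among the 8, and sodium channel genes come further down with the other related genes.

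RNA came from ventricular cardiomyocytes of newborn Sprague-Dawley rats aged 1 to 3 days, kept in culture. The isoproterenol group is 3 arrays of cells given 10 µM isoproterenol, a synthetic beta-adrenergic agonist, for 24 h, which the labels call hypertrophic, and the control group is 3 arrays of cells incubated without it. Both groups had shared the same handling: trypsin and collagenase digestion, a step in uncoated flasks to take out fibroblasts, plating in serum and then serum-free medium. The labels also mention passages and the series text mentions transfection, which the protocol for primary cells does not describe. One dose and one time were tested, and the labels do not say whether replicates came from separate litters or cultures. The p-values therefore cover only how these 6 samples vary, which may be technical.

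HCN channels open when the membrane becomes more negative and carry the pacemaker current, and cAMP, the messenger that beta-adrenergic receptors raise, binds to them directly. L-type calcium channels bring in the calcium that triggers contraction, while T-type channels open at more negative potentials and are prominent in fetal and newborn ventricle. Connexins form the gap junctions through which the impulse passes from cell to cell.

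The RefSeq promoter table held 5 of the 8 genes: Hcn2, Cacna1c, Cacnb2, Gja5 and Gja1. To show their sequence context, the 250 bases before the transcription start are printed for Hcn2, Cacna1c and Gja5, whose isoproterenol readings all lay below control, and for Gja1, the other connexin, for comparison. They are RefSeq sequences of build GRCr8, written 5′ to 3′ on the strand of the gene. They lie at chr7:10639458-10639707 on the minus strand (Hcn2), chr4:154051749-154051998 on the minus strand (Cacna1c), chr2:187290977-187291226 on the plus strand (Gja5) and chr20:36302314-36302563 on the plus strand (Gja1). Capitals mark matches to the motifs named in the next paragraph.
Hcn2: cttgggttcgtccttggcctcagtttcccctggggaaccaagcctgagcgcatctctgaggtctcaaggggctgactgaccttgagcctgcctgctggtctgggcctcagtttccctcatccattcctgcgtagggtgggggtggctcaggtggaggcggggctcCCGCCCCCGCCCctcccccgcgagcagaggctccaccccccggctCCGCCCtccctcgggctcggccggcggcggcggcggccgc
Cacna1c: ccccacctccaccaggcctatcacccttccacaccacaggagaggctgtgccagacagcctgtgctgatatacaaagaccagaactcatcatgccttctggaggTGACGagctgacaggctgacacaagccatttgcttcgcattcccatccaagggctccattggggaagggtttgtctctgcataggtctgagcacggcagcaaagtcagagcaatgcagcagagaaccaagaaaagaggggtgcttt
Gja5: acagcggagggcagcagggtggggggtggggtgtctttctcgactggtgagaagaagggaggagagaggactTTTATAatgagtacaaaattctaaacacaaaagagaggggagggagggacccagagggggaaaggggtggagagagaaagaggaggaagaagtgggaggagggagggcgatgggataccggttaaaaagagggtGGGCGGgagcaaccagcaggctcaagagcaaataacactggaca
Gja1: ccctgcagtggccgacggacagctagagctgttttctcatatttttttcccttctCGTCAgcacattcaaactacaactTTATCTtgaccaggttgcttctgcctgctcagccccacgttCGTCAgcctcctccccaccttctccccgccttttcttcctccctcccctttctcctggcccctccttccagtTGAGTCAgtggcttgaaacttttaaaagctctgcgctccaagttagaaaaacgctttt

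The motifs were searched on both strands: the cAMP response element TGACGTCA, its shorter core TGACG, which the full element contains, and the T-box site AGGTGTGA. The list also held the NKX site TNAAGTG, the AP-1 site TGANTCA, the GATA-factor site AGATAA, the Sp1 box GGGCGG and the TATA box TATAAA. The full cAMP response element stood in 1.59% of 33469 rat promoters of the same length and in none of the windows printed here. Its core, found in 18.2% of all promoters, occurred 1 time before Cacna1c and 2 times before Gja1, which also held 1 AP-1 site (6.34% of promoters) and 1 GATA site (10.3%). Before Hcn2 there were 3 Sp1 boxes, a motif of 30.5% of promoters, and 71.6% of its bases were G or C, against a median of 51.2% over all promoters. Gja5 had 1 Sp1 box and 1 TATA box, the TATA box being present in 12.9% of promoters and lying 178 bases before the start. The T-box site (0.959% of promoters) and the NKX site (9.89%) had no match in these windows. Of the other genes Cacnb2 had 2 start sites in the table, one with 2 Sp1 boxes and one with 1 core of the cAMP response element. Matches describe letters in a window and not binding.

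Levels are log2 of the background-subtracted spot signal relative to the array's own 75th percentile, so that 0 is the 75th percentile of the probes. Levels of different probes depend on the probe and are not set against each other. The arrays were taken to fall on 2 slides, inferred from the scan dates in the scanner headers. On that reading isoproterenol replicate 1 and the 3 controls lay on slide 1. Isoproterenol replicates 2 and 3 lay on slide 2, which was scanned separately and held no control. Slide 2 was dimmer over a brighter background, with 42.0% and 49.8% of spots well above background, against 74.4% to 81.1% on slide 1. The lowest level well above background was −2.77 and −3.41 on the arrays of slide 2 and between −6.51 and −6.04 on those of slide 1. Hcn2, Hcn4, Cacna1c, Cacna1h and Cacnb2, 5 of the 8 genes, were well above background on isoproterenol replicate 1 and on all controls but on neither array of slide 2. That last was true of 28.4% of all genes. Cacna1g, Gja5 and Gja1 were well above background on all 6 arrays. Changes of the 8 genes are therefore also given within slide 1 and with another background correction (normexp). Within slide 1, 1 isoproterenol array stands against 3 controls and is assumed to vary as they do. Normexp was run with an offset of 50 added to every signal, which draws dim readings together and limits what it shows of dim genes.

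Over all genes 3172 differed between isoproterenol and control at an adjusted p under 0.05 in limma's moderated test (15.9%), 2004 being higher (10.0%) and 1168 lower (5.84%) with isoproterenol. Of the 8 genes 2, Hcn2 and Cacna1c, passed lower and 0 passed higher. In 5 of 8 (Hcn2, Hcn4, Cacna1c, Cacna1g and Gja5) every isoproterenol reading lay below every control reading, which was true of 15.8% of all genes. Of these 5, Cacna1g and Gja5 were measured on all arrays, while the slide 2 readings of Hcn2, Hcn4 and Cacna1c were not well above background, and their order there was not measured. The median change of the 8 genes was −0.88, against 0.07 over all genes. Within slide 1 it was −0.58, against 0.11, and under normexp −0.09, against 0.37. Within slide 1 Hcn2 alone of the 8 passed lower (2.61% of all genes did), as with slide as a block (3.56%), and under normexp Gja5 alone (3.72%). Under quantile normalization (5.93%) and in the authors' deposited table (6.5%) Cacna1c and Gja5 passed lower.

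**Figure D1:**
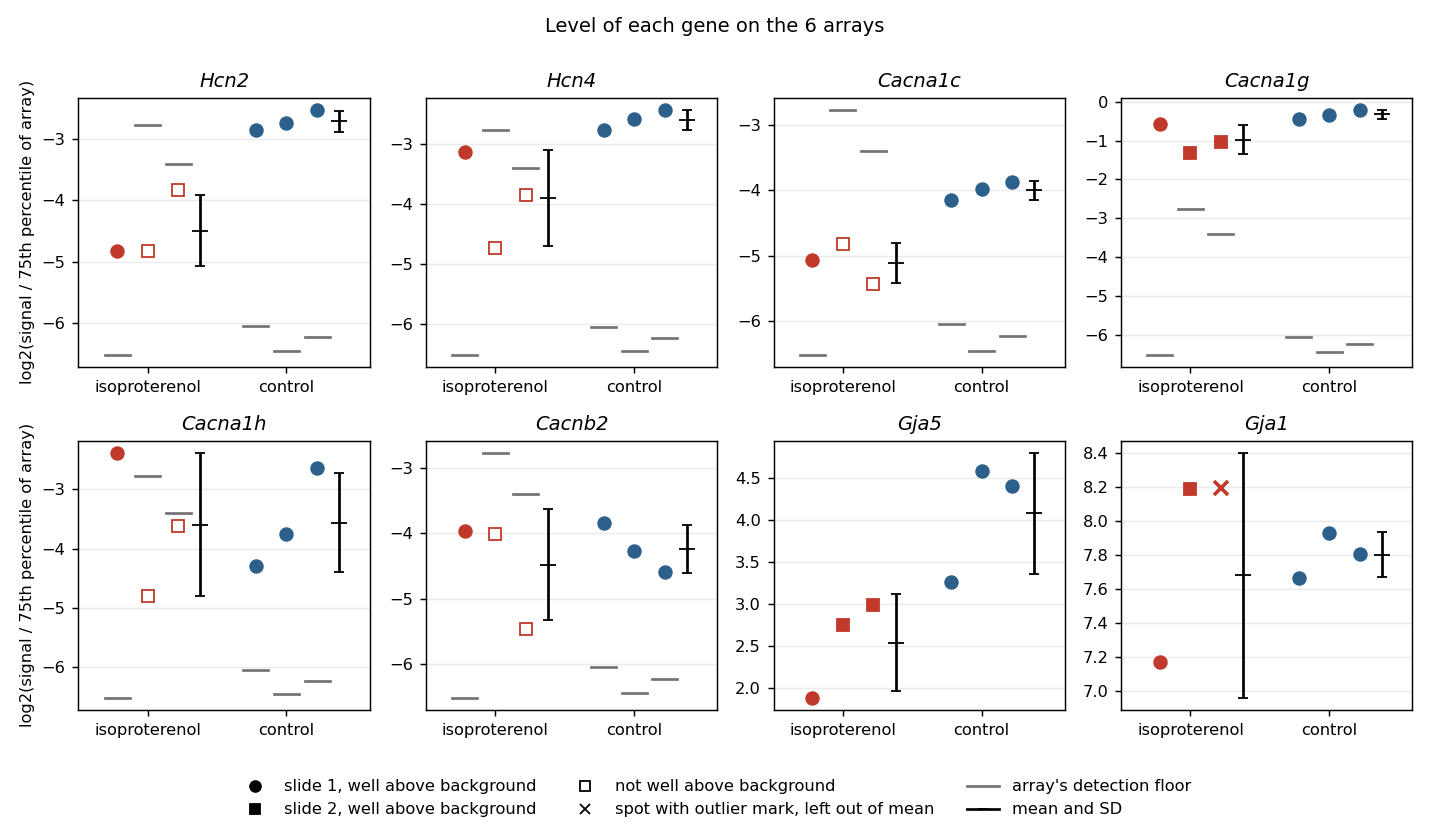
Level of each of the 8 genes on each array, as log2 of the signal relative to the array's 75th percentile, with isoproterenol (red) left of control (blue), circles for slide 1, squares for slide 2, open symbols where the spot was not well above background, grey lines for the array's lowest detected level, and mean and SD beside each group. Hcn2, Hcn4, Cacna1c, Cacna1g and Gja5 show no overlap between the readings of the groups, and the open symbols all belong to slide 2.

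Hcn2, a pacemaker channel found in working as well as nodal myocardium, was lower with isoproterenol. Its level was −4.82, −4.83 and −3.83 on the isoproterenol arrays, against −2.86, −2.75 and −2.53 on the control arrays. The readings did not overlap, with isoproterenol replicate 3 the nearest to the controls. The means were −4.49 ± 0.58 with isoproterenol and −2.72 ± 0.17 in control (SD, 3 arrays each). Hcn2 fell by 1.78 on the log2 scale (SE 0.30, 95% interval −2.50 to −1.05, adjusted p = 0.0138), an estimate that takes in the readings of slide 2 below its detection limit. Only 1 of the 3 isoproterenol arrays measured it well above background, the array of slide 1. There the difference was as large, −2.11 (adjusted p = 0.0306). On slide 2 the lowest detectable level lay above the values measured for Hcn2, and 2 of the 3 controls lay above the lowest detectable level of isoproterenol replicate 2 and all 3 above that of replicate 3. With both dim arrays set to that level, the difference of means was −0.95. The call was lost under normexp (−0.13, adjusted p = 0.758), under quantile normalization (−2.51, adjusted p = 0.0904), in the authors' deposited table (−2.23, adjusted p = 0.0540) and without control replicate 2 or 3 (adjusted p = 0.0672 and 0.0749).

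Hcn4, the main pacemaker channel of the sinoatrial node, did not pass the test. Its level was −3.14, −4.73 and −3.86 with isoproterenol, against −2.78, −2.59 and −2.45 in control. All isoproterenol readings lay below all controls, but the array of slide 1, the only one of its group that measured the gene, lay closest to them. The change was −1.30 ± 0.39 (SE, 95% interval −2.23 to −0.38, adjusted p = 0.0630). On slide 1 the difference was −0.53 (adjusted p = 0.157), and normexp gave −0.05. It passed in 2 of 22 alternatives: with array weights (−1.53) and without isoproterenol replicate 1 (−1.69, adjusted p = 0.00549). The latter fit puts the groups on different slides, and array weights moved the change towards it.

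Cacna1c encodes the pore of the cardiac L-type calcium channel. Its level was −5.05, −4.82 and −5.43 with isoproterenol, against −4.15, −3.97 and −3.88 in control, and the readings did not overlap. The fitted change was −1.103 on the log2 scale (SE 0.21, 95% interval −1.60 to −0.60, adjusted p = 0.0186), an estimate that takes in the readings of slide 2 below its detection limit. This gene was dim on every array, and on slide 2 the lowest detectable level lay above all 3 controls, so a level like that of the controls would not have been well above background there. With both dim arrays set to that level, the difference of means turned to 0.26. The array of slide 1 measured it and differed from its controls by −1.05 (adjusted p = 0.05002, just over the threshold). Under normexp the sign turned, to 0.23 (95% interval −0.39 to 0.86, adjusted p = 0.492). In the authors' deposited table the change was −1.90 (adjusted p = 0.0199). The call was also lost without isoproterenol replicate 3 (adjusted p = 0.0640) and without control replicate 1, 2 or 3 (adjusted p = 0.0512, 0.0889 and 0.0991).

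Cacna1g, a T-type calcium channel, was measured on every array. Its level was −0.57, −1.32 and −1.05 with isoproterenol, against −0.44, −0.33 and −0.21 in control. The groups did not overlap, but isoproterenol replicate 1 lay close to the controls of its own slide while both arrays of slide 2 lay further down. The change of −0.65 ± 0.23 (SE, 95% interval −1.19 to −0.11) did not pass (adjusted p = 0.0924), and within slide 1 it was −0.25 (adjusted p = 0.364). Normexp gave −0.40 (adjusted p = 0.116). It passed with array weights (−0.82), among the genes detected on all 6 arrays (adjusted p = 0.0471) and without isoproterenol replicate 1 (−0.86, adjusted p = 0.00612). That last fit puts the groups on different slides, and array weights moved the change towards it. The second transcript row of Cacna1g was well above background on 0 isoproterenol arrays and on all 3 controls, with levels of −6.68, −4.84 and −5.32 with isoproterenol, against −5.08, −4.81 and −4.67 in control. These groups overlapped (−0.76 ± 0.46, adjusted p = 0.266). On slide 2 the lowest detectable level lay above all 3 controls, so the order there was not measured. The isoproterenol reading of slide 1 lay below all 3 controls.

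Cacna1h, another T-type channel, gave readings that varied widely within each group. Its level was −2.39, −4.79 and −3.62 with isoproterenol, against −4.29, −3.75 and −2.65 in control. The ranges overlapped, and the SDs were 1.20 with isoproterenol and 0.83 in control. Neither reading of slide 2 was well above background, so the isoproterenol SD takes in readings below the detection limit. Only 1 of the 3 controls lay above the lowest detectable level of either slide 2 array. The change was −0.04 ± 0.66 (SE), and its 95% interval of −1.61 to 1.53 leaves room for a large difference in either direction (adjusted p = 0.972). The sign turned within slide 1, to 1.17 (adjusted p = 0.303), and under normexp, to 0.58 (adjusted p = 0.110).

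Cacnb2 encodes an auxiliary beta subunit that brings the L-type pore to the membrane. Its level was −3.96, −4.01 and −5.46 with isoproterenol, against −3.85, −4.27 and −4.59 in control, so that the groups overlapped. Neither reading of slide 2 was well above background. The lowest detectable level there lay above all 3 controls, so a level like theirs would not have been well above background. The change of −0.24 ± 0.43 (SE, 95% interval −1.27 to 0.79) did not pass (adjusted p = 0.715), and it was 0.28 within slide 1 and 0.65 under normexp.

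Gja5 is the connexin of atrial muscle, the Purkinje fibres and arterial endothelium. Its level was 1.88, 2.74 and 2.98 with isoproterenol, against 3.26, 4.58 and 4.40 in control. Every isoproterenol array lay below every control, and control replicate 1 lay nearest to them. The means were 2.54 ± 0.58 with isoproterenol and 4.08 ± 0.72 in control (SD, 3 arrays each). The change was −1.54 ± 0.43 (SE, 95% interval −2.57 to −0.51), a ratio of 0.343, and it missed the threshold narrowly (adjusted p = 0.0550). In contrast to the pacemaker genes, Gja5 was bright on all arrays, and its lowest isoproterenol value came from slide 1, where the difference was −2.20 (adjusted p = 0.0976). It was lower under every alternative run, between −2.20 and −1.22, and passed in 9 of 23. Among these were normexp (−1.69, adjusted p = 0.0211), quantile normalization (−1.83, adjusted p = 0.0455), the authors' deposited table (−1.83, adjusted p = 0.0407) and the fit without control replicate 1 (−1.96, adjusted p = 0.0386). It did not pass without isoproterenol replicate 1, 2 or 3 (adjusted p = 0.0566, 0.115 and 0.0957) or without control replicate 2 or 3 (adjusted p = 0.175 and 0.181).

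Gja1, the main connexin of ventricular muscle, was bright on every array. Its level was 7.17 and 8.19 on isoproterenol replicates 1 and 2, against 7.67, 7.93 and 7.80 in control. The isoproterenol values lay on both sides of the controls, with the array of slide 1 below and that of slide 2 above. The spot of isoproterenol replicate 3, at 8.19, carried an outlier mark of the scanner software and was left out. The change of −0.12 ± 0.33 therefore rests on 2 isoproterenol arrays (SE, 95% interval −0.94 to 0.70, adjusted p = 0.814). With the spot kept it was 0.05 (adjusted p = 0.919). Within slide 1 it was −0.63 (adjusted p = 0.104). Normexp gave −0.35 (adjusted p = 0.251).

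**Figure D2:**
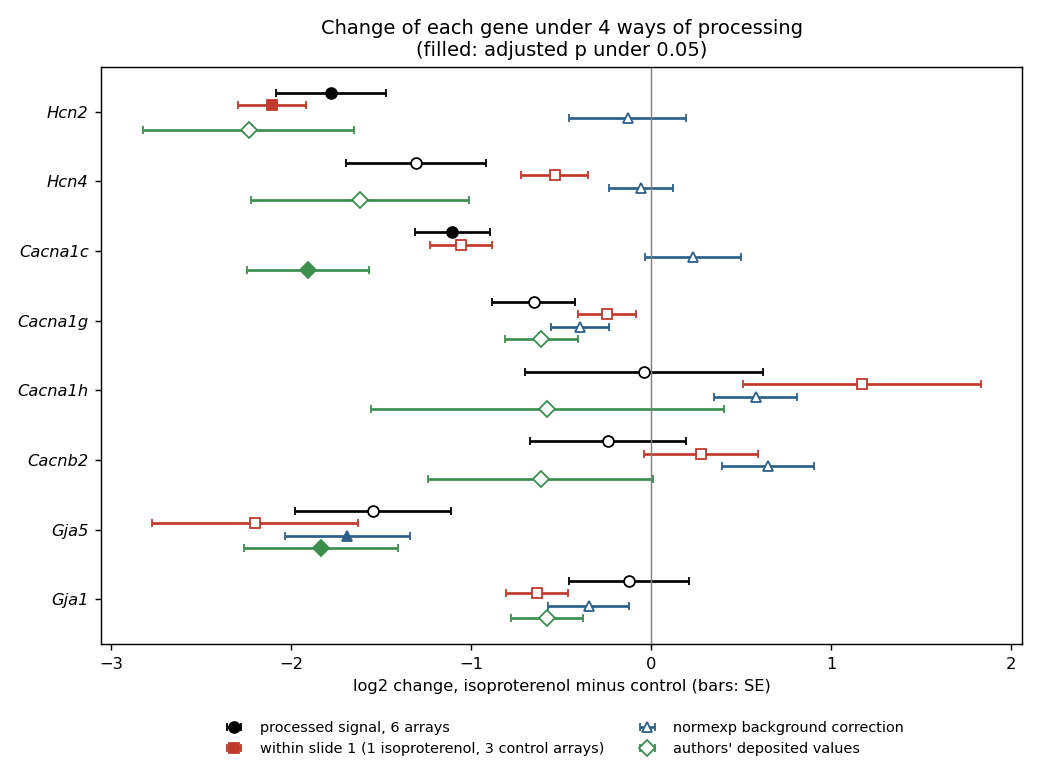
Change of each of the 8 genes, isoproterenol minus control on the log2 scale, with the SE as a bar, from the processed signals of 6 arrays (black), within slide 1 (red), under normexp (blue) and from the authors' deposited table (green), filled where the adjusted p is under 0.05. Gja5 stays left of 0 in all 4, between −2.20 and −1.54, while Hcn2 reads −1.78, −2.11, −0.13 and −2.23.

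The percentile and median scalings move all genes together, so the changes were also taken relative to the median of all genes. Quantile normalization and normexp do not shift all genes alike. On that footing Hcn2 was at −1.84 with the 75th percentile, with median scaling and with the percentile taken over detected probes, at −2.43 under quantile normalization and at −0.50 under normexp. Gja5 was at −1.61, −1.75 under quantile normalization and −2.05 under normexp. For Cacna1c the values were −1.17, −2.11 under quantile normalization and −0.13 under normexp. Under normexp Hcn2 and Cacna1c, both dim, lay nearer to the median of all genes than under the other settings, and Gja5, which was bright, lay further from it.

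Of 107 related genes in 7 lists 73 could be tested, of which 7 rose, 11 fell and 55 did not pass, against 10.0% higher and 5.84% lower over all genes. The median change of the 73 was −0.19, within slide 1 −0.02 and under normexp 0.30. Of the 18 that changed, 8 passed again in the same direction within slide 1, 14 under normexp and 15 in the authors' deposited table. Rrad, Irx4, Irx5 and Gjb2 were among those that passed both within slide 1 and under normexp.

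**Figure D3:**
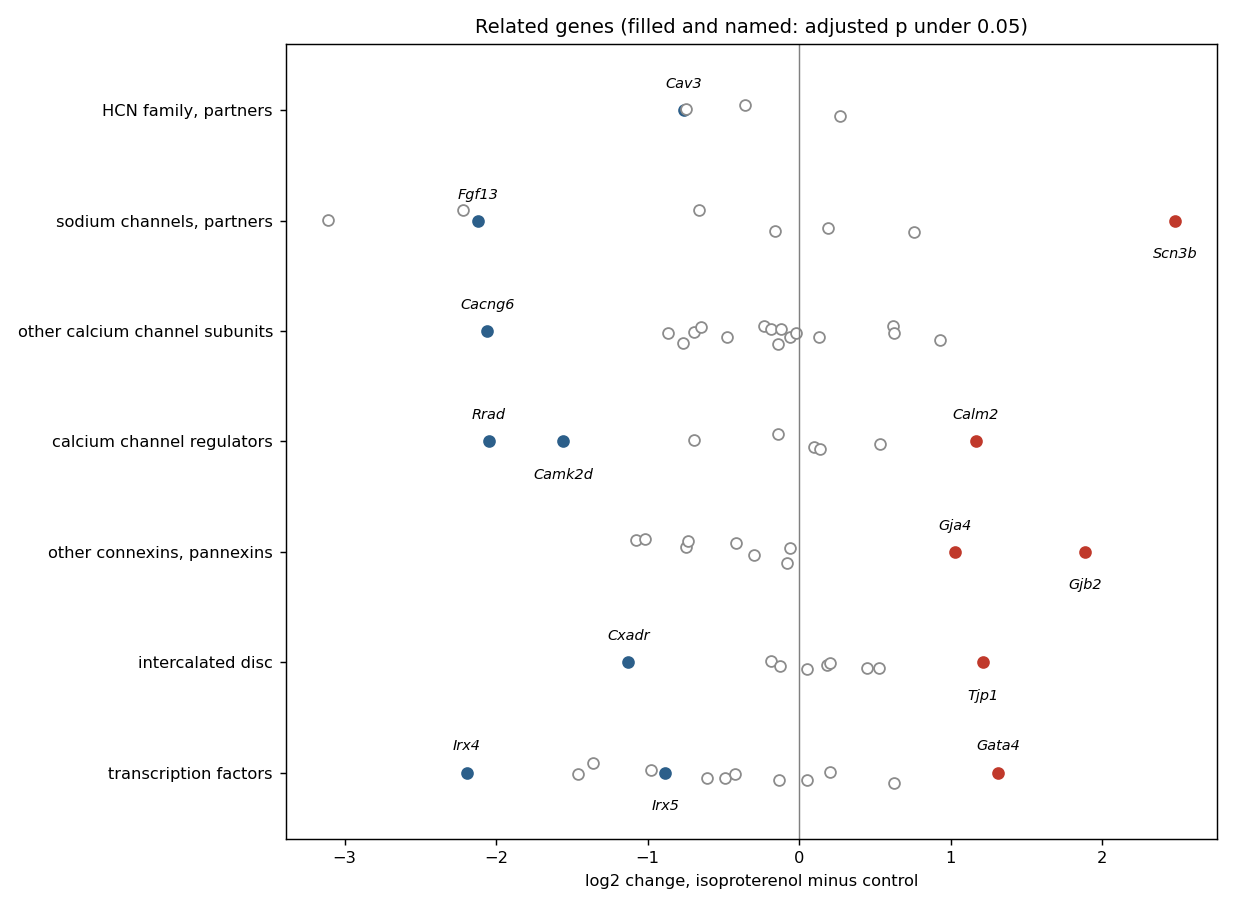
Change of 68 of the related genes tested, isoproterenol minus control on the log2 scale, by list, with the 14 shown here that passed the threshold filled and named (red higher, blue lower). The changed genes run between −2.19 for Irx4 and 2.48 for Scn3b, and both directions occur among the sodium channel partners, the calcium channel regulators, the intercalated disc and the transcription factors.

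Of the HCN family and its partners 4 of 5 were tested, 0 rose and 1 fell. Cav3, the muscle caveolin whose membrane domains hold HCN and other channels, was at 1.76 ± 0.21 with isoproterenol and 2.52 ± 0.11 in control (SD), a change of −0.76 ± 0.18 (adjusted p = 0.0365). Within slide 1 it was −0.55 and did not pass (adjusted p = 0.117).

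Of the sodium channels and their partners 11 of 20 were tested. Of these 1 rose, 3 fell and 7 did not pass, and the median change was −0.66, with −0.19 within slide 1 and 0.40 under normexp. Scn3b, a beta subunit of the kind that tunes gating and anchors the pore, rose, with levels of −2.09, −0.91 and −1.03 with isoproterenol, against −3.06, −4.66 and −3.76 in control (2.48 ± 0.48, adjusted p = 0.0193). For Scn3b the value within slide 1 was 1.74 (adjusted p = 0.168). Fgf13, a growth factor homologue that stays in the cell and binds sodium channels, fell, at 2.02, 1.35 and 1.01 with isoproterenol, against 3.28, 3.88 and 3.59 in control (−2.12 ± 0.30, adjusted p = 0.00906, within slide 1 −1.56, adjusted p = 0.0535).

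Of the other calcium channel subunits 16 of 22 were tested. Of these 0 rose, 1 fell and 15 did not pass, and the median change was −0.16, with 0.086 within slide 1 and 0.48 under normexp. Cacng6, a gamma subunit, fell, at −3.77, −4.75 and −4.14 with isoproterenol, against −2.33, −2.08 and −2.06 in control (−2.06 ± 0.27, adjusted p = 0.00781). It was well above background on 1 isoproterenol array, passed within slide 1 (−1.61, adjusted p = 0.0342) and did not pass under normexp (−0.29, adjusted p = 0.358).

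Of the regulators of the L-type channel 9 of 10 were tested, 2 rose, 2 fell and 5 did not pass. Rrad, a small GTPase that restrains the L-type channel until protein kinase A releases it, fell. Its level was 1.81, 1.94 and 2.25 with isoproterenol, against 3.96, 4.21 and 3.98 in control (−2.05 ± 0.19, adjusted p = 0.00317). The groups lay far apart in relation to their SDs of 0.22 with isoproterenol and 0.14 in control. Rrad was at −2.24 within slide 1 (adjusted p = 0.0294) and at −2.14 under normexp (adjusted p = 0.00211). Camk2d, the cardiac calmodulin-dependent kinase, fell, at −1.44, −2.32 and −1.97 with isoproterenol, against −0.18, −0.38 and −0.51 in control (−1.56 ± 0.26, adjusted p = 0.0130, within slide 1 −1.09, adjusted p = 0.0539). Calm2, one of the genes for calmodulin, which closes the channel when calcium is high, rose (1.17 ± 0.29, adjusted p = 0.0392). It did not pass within slide 1 (0.53, adjusted p = 0.0999) or in the authors' deposited table (0.70, adjusted p = 0.0546).

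Of the other connexins and the pannexins 11 of 20 were tested, 2 rose, 1 fell and 8 did not pass. Gja4, a connexin of arterial endothelium, rose, at 0.90, 1.20 and 1.31 with isoproterenol, against 0.07, 0.12 and 0.13 in control (1.03 ± 0.18, adjusted p = 0.0138, within slide 1 0.79, adjusted p = 0.0549). Gjb2, known from the epithelia of the inner ear and skin, rose, at −1.63, −0.96 and −0.67 with isoproterenol, against −2.94, −2.91 and −3.09 in control (1.89 ± 0.27, adjusted p = 0.00896, within slide 1 1.35, adjusted p = 0.0343).

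Of the partners at the intercalated disc, where cardiomyocytes meet, 9 of 13 were tested, 1 rose, 1 fell and 7 did not pass. Tjp1, the scaffold that binds the tail of the Gja1 protein, rose, at 5.15, 5.92 and 5.93 with isoproterenol, against 4.54, 4.38 and 4.43 in control (1.21 ± 0.25, adjusted p = 0.0228, within slide 1 0.70, adjusted p = 0.0705). Cxadr, a junction protein of the disc that is also a virus receptor, fell, at −0.87, −1.60 and −1.13 with isoproterenol, against −0.36, 0.10 and 0.03 in control (−1.13 ± 0.25, adjusted p = 0.0276, within slide 1 −0.80, adjusted p = 0.119).

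Of the transcription factors of chamber and conduction tissue 13 of 17 were tested, 1 rose, 2 fell and 10 did not pass. Irx4, the Iroquois factor of ventricular muscle, fell, at 2.79, 2.83 and 2.66 with isoproterenol, against 4.56, 5.24 and 5.08 in control (−2.19 ± 0.22, adjusted p = 0.00397). The isoproterenol arrays of both slides agreed closely on Irx4, and within slide 1 the change was −2.16 (adjusted p = 0.0440). Irx5, which shapes the gradient of repolarization across the mouse ventricular wall, fell, at 0.44 ± 0.22 with isoproterenol and 1.33 ± 0.12 in control (−0.88 ± 0.19, adjusted p = 0.0244), with −1.13 within slide 1 (adjusted p = 0.0456). Gata4, an early cardiac factor, rose, at 5.98, 6.51 and 6.58 with isoproterenol, against 5.27, 4.83 and 5.02 in control (1.32 ± 0.23, adjusted p = 0.0147, within slide 1 0.94, adjusted p = 0.0825).

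**Figure D4:**
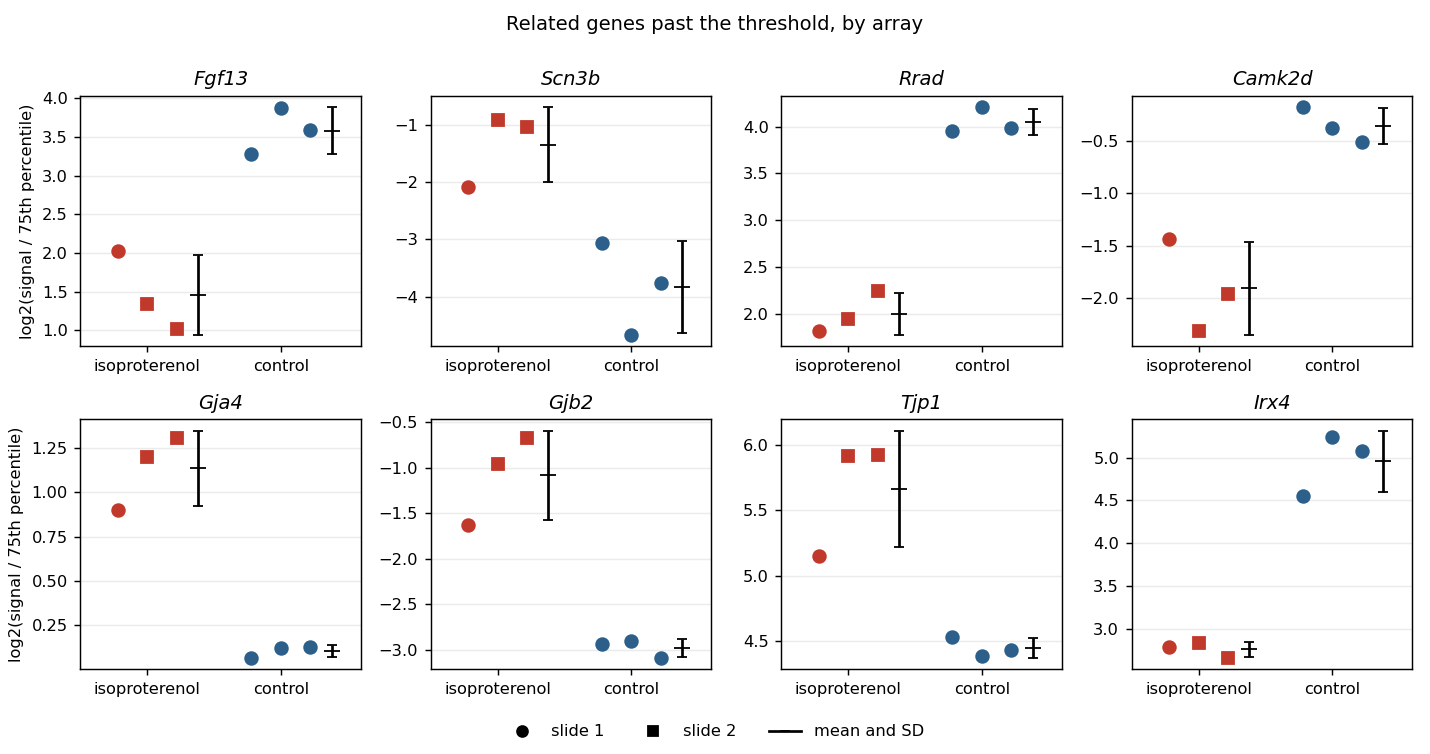
Level of 8 of the related genes past the threshold on each array, as log2 of the signal relative to the array's 75th percentile, with isoproterenol (red) left of control (blue), circles for slide 1, squares for slide 2, and mean and SD beside each group. In none of the 8 do the groups overlap. Among the genes that fell, the circle of isoproterenol replicate 1 lies among or below the squares of slide 2 for Rrad and Irx4. It lies above the squares for Fgf13 and Camk2d. For Scn3b, Gja4, Gjb2 and Tjp1, which rose, the circle lies below the squares.

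The cells carried transcripts of cardiomyocytes: all 6 cardiomyocyte markers tested and 3 of 4 ventricular markers were well above background on all 6 arrays. The same was true of 6 of 7 atrial markers and of 12313 of the 20006 genes tested. Detection therefore does not tell ventricular from atrial cells. The summed signal of the cardiomyocyte markers, in units of each array's 75th percentile, was 1474 to 2511 with isoproterenol and 1176 to 1417 in control. Isoproterenol replicate 1, on slide 1, was at 1474, and replicates 2 and 3, on slide 2, were at 2511 and 2439. Of the 6 markers 1, Myh6, was higher (1.23, but 0.82 within slide 1). Of the ventricular markers 1 of 4 was lower, Irx4, which also stands in the list of transcription factors. Of 7 atrial and 4 nodal markers 0 passed the test, with summed signals of 12.4 to 14.4 with isoproterenol and 12.8 to 14.5 in control for the nodal list. Of the nodal list Tbx3 and Tbx18 were well above background on all arrays, Shox2 on 2 isoproterenol arrays and all 3 controls (−0.98, adjusted p = 0.0749), and Isl1 on 1 isoproterenol array and 2 controls.

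Transcripts of other cell types were present too, and some differed between the groups. In each list below, isoproterenol replicate 1, the array of slide 1, stood at an end of the isoproterenol range of sums. It was the highest for endothelial markers and the lowest for the others. Its macrophage sum of 30.7 lay within the control range, and its fibroblast sum of 133 lay below all controls. Smooth muscle and pericyte markers summed to 217 to 498 with isoproterenol and 83.5 to 149 in control, 2 of 6 being higher, Acta2 by 1.91 and Tagln by 1.77. Within slide 1 neither passed (Acta2 at 1.16, adjusted p = 0.321, and Tagln at 1.03, adjusted p = 0.0822), while both passed under normexp. Endothelial markers summed to 14.0 to 15.5 with isoproterenol and 14.9 to 16.7 in control, 1 of 6 being lower (Kdr, −1.22). Kdr was well above background on 1 isoproterenol array, passed within slide 1 (−1.27, adjusted p = 0.0444) and was at −0.048 under normexp (adjusted p = 0.892). Fibroblast markers summed to 133 to 178 with isoproterenol and 156 to 165 in control, with 1 of 9 higher and 4 lower, among them Postn (−1.32) and Lum (−1.60). Postn passed within slide 1 (−0.93, adjusted p = 0.0487) and Lum did not (−1.54, adjusted p = 0.0622), and both passed under normexp. Macrophage markers summed to 30.7 to 49.2 with isoproterenol and 21.3 to 31.2 in control (1 of 5 higher), and neural and Schwann cell markers to 4.10 to 6.01 with isoproterenol and 3.53 to 3.89 in control (1 higher and 1 lower of 6). Gja5, Gja4 and Gja1 are also made by vascular cells, and the part of these other cells in the connexin levels was not tested. In bulk RNA, fewer cells of a type and less RNA per cell cannot be told apart.

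To show which transcripts followed each gene over the arrays, the named genes with the highest Pearson correlation were taken, as a description over 6 arrays that share slide and treatment. Hcn2 was followed most closely by Fa2h and Zmym3 (r = 0.997 for both), and Hcn4 by Gata6 and Ldlrad4 (both 0.998). For Cacna1c these were Irf4 and Agrn (both 0.994), for Cacna1g Sfta2 (0.998) and Abhd4 (0.996), and for Gja5 Nr1d2 (0.999) and Dapp1 (0.995). Gja1, over 5 arrays, was followed by Gigyf1 and Adh5 (both 0.999). Cacna1h had Zfp93 (0.986) and Celsr3 (0.969), and Cacnb2 had P2rx2 (0.992) and Mat1a (0.985). Among 13230 genes compared, 12 exceeded an r of 0.95 with Cacna1h and 17 with Cacnb2, against 394 with Cacna1g and 311 with Hcn4. With so few arrays, high values are common, and no test was made.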

How the data were processed

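Per the file headers, the deposited scanner files hold linear Cy3 intensity values of 6 Agilent arrays read with Agilent Feature Extraction 11.0.1.1, background-subtracted by that software, beside its 0 or 1 marks for each spot. A table of log2 values for mRNAs was also deposited by the authors. These lie close to quantile-normalized intensities, and its tool is not named in the files or labels used here. The table of lncRNAs was not used.

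The scanner files give probe numbers, so each table row was assigned the probe with its values on the 6 arrays (distance under 0.05 and under 0.25 of that to the next probe): 20709 of 20734 rows matched, and 14742 of 14742 neighbouring RefSeq accessions followed the probe order. Symbols came from RefSeq (GRCr8) for 13956 of 14757 NM accessions.

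Values are log2 of the processed signal minus each array's 75th percentile. Spots that were controls or carried an outlier mark were dropped. Each gene was taken at its brightest probe, if well above background on at least 3 of 6 arrays. Isoproterenol was compared with control by limma 3.58.1 in R 4.3.3 (lmFit, eBayes), two-sided, Benjamini-Hochberg adjusted over all genes, at 0.05. Alternatives changed the background correction, scaling, filter, slide, probe rule, variance model and source of values, used the replicate numbers as a block, or left out each array. normexp (offset 50) used the median spot signals, where the mean signals had been planned. The replicate numbers did not pair the arrays: the correlations of same-numbered deviations were 0.0075, 0.050 and −0.025.

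The genes, the lists, the motifs and the markers were chosen with earlier results of these data known. Of the related lists the genes past the threshold are named, except some that are counted but not reported here by name, and for each gene described the 2 named genes most correlated with it. No array had a saturated spot; the number of arrays limits the precision.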

Additional observations from a re-analysis of the deposited data

How the results depend on the processing

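Slide 2 held isoproterenol arrays only, and the dim genes were not measured there, which limits what the tests can show. The lower Hcn2 and Cacna1c calls take in dim spots. With every value raised to the highest detection floor (−2.77), an alternative chosen after seeing the data, 0 of the 8 genes passed. This floor lay above every Cacna1c control and among the controls of Hcn2. It removes most of any lower reading in these genes, so it cannot test their calls. Limma then gave Hcn2 −0.085 (adjusted p = 0.568), while Gja5 stayed at −1.54 (adjusted p = 0.134). Of all genes 3172 were called in the main setting, 1423 with slide as a block, 1000 within slide 1, 1399 with the replicate block and 11541 with array weights. Leaving out 1 array gave between 312 and 10371 genes, the highest without isoproterenol replicate 1, which puts the groups on different slides, and the lowest without control replicate 3. Of the 8 genes 2 were called in the main setting, 1 under normexp, 1 with slide as a block, 1 within slide 1, 5 with array weights, and between 0 and 4 when 1 array was left out. Of the related genes 18 were called, against 11 with slide as a block, 9 within slide 1, 7 with the replicate block, 45 with array weights, and between 2 and 41 when 1 array was left out. With the replicate block Gja5 passed (adjusted p = 0.0343), Cacna1c did not (adjusted p = 0.0565), and the other calls among the 8 genes did not change. Signs turned for Cacna1c under normexp (0.23); for Cacna1h under normexp (0.58), median scaling (0.029, where all genes shift alike and the value relative to their median stays at −0.11), slide as a block and within slide 1 (both 1.17), when 1 array was left out (−0.64 to 0.56, above 0 without isoproterenol replicate 2 or without control replicate 3, 0.42) and at the highest floor (0.086); for Cacnb2 under normexp (0.65), slide as a block and within slide 1 (both 0.28) and when 1 array was left out (−0.50 to 0.25, above 0 without isoproterenol replicate 3); and for Gja1 when 1 array was left out (−0.63 to 0.39, above 0 without isoproterenol replicate 1), with array weights (0.22) and with the marked spot kept (0.050). The cause was not tested. The split of calls depended on the scaling: 2004 higher and 1168 lower in the main setting, 2092 and 745 under normexp, 1363 and 1950 with the percentile taken over detected probes, and 1501 and 1186 under quantile normalization. The median change of all genes was 0.07, 0.37, −0.17 and −0.08 in these settings. Dropping the filter on dim probes changed no value, since every matched row was already well above background on 3 arrays.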
